A study of Drosophila melanogaster with 2 samples.

Results

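The small subunit of the cytoplasmic ribosome is built in Drosophila melanogaster from 1 ribosomal RNA and a set of proteins encoded by genes named RpS with a number, and by stubarista (sta), whose product is the fly homologue of the laminin receptor protein RPSA. Of 13945 annotated protein-coding genes on the chromosome arms analysed, 39 were small-subunit genes by that naming rule, mitochondrial ribosomal proteins excluded. Duplicated copies such as RpS5a and RpS5b counted as separate genes. Binding at these 39 promoters was read from chromatin immunoprecipitation with sequencing (ChIP-seq), in which DNA fragments crosslinked to a protein are recovered with an antibody and sequenced. The chromatin came from whole prepupae, the short stage between larva and pupa, with both sexes pooled and age not known, from a stable transgenic line that carries CG6854 fused to GFP at its C terminus. It was sonicated and precipitated with an antibody to GFP in 2 biological replicates, numbered 2 and 3, which form the only group. The labels give CTPsyn as the target, the enzyme CTP synthase, and CG6854 is in the reference table a former name of both Ctps and the overlapping gene CG45071. Control DNA was not analysed here, so the part of signal that does not depend on the tag was not tested.

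Small-subunit proteins hold the messenger RNA in the entry and exit channels of the subunit and contribute to the decoding centre. They line the head, beak, platform and body around the ribosomal RNA. Cells make them in near equal amounts, and in flies the loss of 1 copy of many of these genes gives the Minute phenotype of slow growth and short bristles. Most ribosomal protein genes of flies start transcription at a polypyrimidine initiator, the TCT motif, in place of the common initiator. The DNA replication-related element (DRE), bound by the factor Dref, is another promoter element of growth genes in flies. CTP synthase makes the nucleotide CTP from UTP and assembles into filaments called cytoophidia in fly tissues. It is known as a metabolic enzyme and not as a sequence-specific DNA-binding protein.

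The promoter sequences that the results turn on are printed 5′ to 3′ on the gene's strand, from the RefSeq genome of Release 6 (dm6), 30 bases before the start site to 20 after it. Capitals mark a TCT initiator, read on the sense strand as TCTTTT or TCTTTC or with a first C as CCTTTT or CCTTTC, the second letter (C) lying within 5 bases of a start site. At RpS10b and RpS28b such letters lie beyond 5 but within 10 bases of a start and stay in lower case. At RpS30, 2 initiators overlap, and only the more upstream is wholly in capitals. The other, TCTTTT, has its C at the start site itself. The first 4 lines are strongly bound genes, of which RpS10b and RpS15Aa share a run of 22 bases, ccttccgtttccctttcttttc. The next 4 lines are 2 pairs of duplicated genes in which the first gene was bound and its copy was not. The last 2 short lines are single-copy genes with the initiator and no promoter summit in the IDR list.
RpS4, chr3L:13041771-13041821, plus strand: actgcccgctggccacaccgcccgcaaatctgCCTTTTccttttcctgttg
RpS27, chr3R:25247452-25247502, minus strand: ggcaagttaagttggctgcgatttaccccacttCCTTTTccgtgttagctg
RpS10b, chrX:19598010-19598060, plus strand: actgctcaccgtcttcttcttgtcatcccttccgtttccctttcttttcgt
RpS15Aa, chrX:13337618-13337668, minus strand: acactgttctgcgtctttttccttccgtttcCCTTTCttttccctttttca
RpS19a, chrX:16637864-16637914, plus strand: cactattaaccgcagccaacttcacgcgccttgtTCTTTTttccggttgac
RpS19b, chr3R:23933510-23933560, minus strand: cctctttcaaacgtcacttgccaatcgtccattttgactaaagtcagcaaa
RpS28b, chrX:9554593-9554643, plus strand: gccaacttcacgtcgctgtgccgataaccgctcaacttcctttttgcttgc
RpS28a, chr3R:30022628-30022678, minus strand: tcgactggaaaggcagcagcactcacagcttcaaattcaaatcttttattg
RpS13, chr2L:8364576-8364626, minus strand: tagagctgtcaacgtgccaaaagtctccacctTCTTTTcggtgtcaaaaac
RpS30, chr3R:20850567-20850617, plus strand: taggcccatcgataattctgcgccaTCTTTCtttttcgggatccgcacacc

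Longer stretches, from 150 bases before the start site to 20 after it, are shown for RpS25 and RpS7 because each holds both a DRE and the initiator. The capitals mark the DRE, TATCGATA, which begins 59 bases before the start site of RpS25 and 85 bases before that of RpS7, and then the TCT initiator. The summits of binding lay 12 bp upstream of the start of RpS25 and 43 bp downstream of the start of RpS7.
RpS25 promoter, chr3R:11216267-11216437, minus strand: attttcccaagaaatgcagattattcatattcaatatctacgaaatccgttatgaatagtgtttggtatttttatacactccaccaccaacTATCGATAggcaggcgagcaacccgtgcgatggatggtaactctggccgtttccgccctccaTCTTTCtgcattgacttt
RpS7 promoter, chr3R:30208922-30209092, minus strand: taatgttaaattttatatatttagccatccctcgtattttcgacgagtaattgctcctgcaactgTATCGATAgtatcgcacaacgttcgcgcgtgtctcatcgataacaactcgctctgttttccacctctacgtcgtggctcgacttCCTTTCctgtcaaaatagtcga

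A gene was called bound when a summit, the position of highest signal in a peak, lay within 500 bp of 1 of its start sites in the list of 5703 dm6 peaks that passed the authors' irreproducible discovery rate (IDR) threshold, a measure of agreement between replicates. By this rule 32 of the 39 small-subunit genes were bound (82.1%), against 20.0% of all protein-coding genes (2785 of 13945). With as many of the strongest summits taken from replicate 2 alone, 30 of the 39 were bound, against 20.5% of all genes, and from replicate 3 alone 32 of the 39, against 19.1% of all genes. Over both replicates the share was 79.5% ± 3.63 for small-subunit genes and 19.8% ± 1.00 for all genes (SD, n = 2). In the pooled list called with relaxed settings 36 of the 39 had a promoter summit, against 48.1% of all genes. Replicate 3 alone gave the same 32 genes as the IDR list and replicate 2 alone lacked RpS24 and RpS5b. No test was run on these shares, because there is 1 group and the gene list was chosen with results of these data known.

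Genes with more start sites have more windows in which a summit can fall, and 51.3% of the small-subunit genes had more than 1 start site, against 26.5% of all genes. Among genes with a single start site, 14 of 19 small-subunit genes were bound, against 13.7% of all such genes (1401 of 10246). All 9 small-subunit genes on X, all 4 on 3L and the 1 on chromosome 4 (RpS3A) were bound, as were 6 of 7 on 2R, 4 of 6 on 2L and 8 of 12 on 3R. The share of all protein-coding genes was 20.0% over all arms together and was not computed for each arm. Differences between arms were therefore not read from these counts and were not tested.

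**Figure D1:**
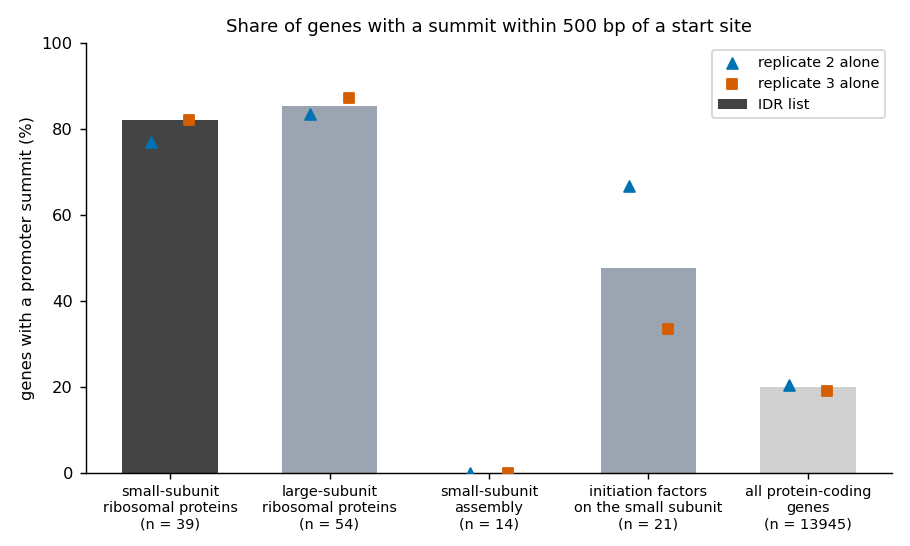
Share of genes with a summit within 500 bp of a start site, in percent, for 5 gene lists; bars show the IDR list, triangles replicate 2 alone and squares replicate 3 alone. The bar of the small-subunit genes stands at 82.1%, beside 20.0% for all protein-coding genes, and the bar of the assembly factors is at 0.

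The height of a peak is given by the signal value, the authors' score per peak, whose scale is not stated. Its median at the strongest promoter summit of the 32 bound small-subunit genes was 349.5 (quartiles 272 and 509.9, range 140.3 to 935), against 212.5 at all bound protein-coding genes and 200.1 over the 5703 summits of the list. The summits of 29 of the 32 genes lay above the median of the list and 12 (37.5%) were among the 570 strongest of the 5703. The peaks were narrow, with a median width of 332.5 bp (109 to 430.0 bp), against 430.0 bp over the list. In whole animals, a peak that is weak in all cells and a peak present in few cells cannot be told apart.

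The strongest promoter peak was at RpS4, a protein of the body of the subunit, on the plus strand of 3L. Its peak, dm6 chr3L:13041617-13042026, had a signal of 935 in the IDR list, 448 in replicate 2 and 510.4 in replicate 3, and ranked 55 and 89 among the summits of those replicates. The summit lay 13 bp downstream of the start, in the 5′ UTR, and the only other gene start within 1000 bp was that of snoRNA:Psi28S-3327a, a small nucleolar RNA, 953 bp away. RpS27, a zinc-binding protein of the platform, followed with a signal of 840.4 at chr3R:25247297-25247668, 358 in replicate 2 and 491 in replicate 3. This summit lies 175 bp from the start of Nup37, a nuclear pore gene, and 61 bp from that of sisRNA:CR46364, so it cannot be assigned to RpS27 alone. RpS10b, in the beak of the head, had 795 at chrX:19597852-19598257, with 387 in replicate 2 and 406 in replicate 3, and no other gene start within 1000 bp. These 3 genes stood above all other small-subunit genes in each replicate.

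RpS25, a head protein near the exit site for transfer RNA, had a signal of 638 at chr3R:11216166-11216478, with 300 in replicate 2 and 336 in replicate 3. CG4820 starts 236 bp from this summit, and a weaker summit of 188 lay 213 bp upstream of the RpS25 start. RpS28b, at the mRNA exit channel, had 621 at chrX:9554425-9554757, with 296 in replicate 2 and 330.2 in replicate 3, and l(1)G0320 starts 860 bp away. RpS19a, a head protein whose human homologue is mutated in Diamond-Blackfan anaemia, had 598 at chrX:16637762-16638105, with 309 in replicate 2 and 302.5 in replicate 3. A weaker summit of 216 lay 33 bp upstream of its start, and Rok, a kinase gene, starts 488 bp from the strongest summit. For these 3 genes the replicates differed by a factor of 1.02 to 1.12.

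RpS18, a head protein that bridges to the large subunit, had a signal of 589 at chr2R:20263856-20264175, with 323 in replicate 2 and 269 in replicate 3. Its strongest summit lay 36 bp into the gene, in an intron, with plu starting 331 bp and CG8908 905 bp away, and a summit of 191 stood 145 bp downstream of the start. RpS7, in the body, had 527 at chr3R:30208701-30209095, with 236 in replicate 2 and 291 in replicate 3. The gene holds 7 snoRNA genes, of which the nearest to the summit, snoRNA:Psi28S-2626, starts 860 bp away. RpS3A, a platform protein, had 504 at chr4:67044-67345, with 211 in replicate 2 and 295.5 in replicate 3, and no other gene start within 1000 bp. The laminin receptor homologue sta closed the 10 strongest with 438 at chrX:1483105-1483436, with 204 in replicate 2 and 235 in replicate 3. The start of inc lies 198 bp from the sta summit, and those of 2 snoRNA genes, snoRNA:Me28S-G980 and snoRNA:M, lie 652 and 691 bp away.

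**Figure D2:**
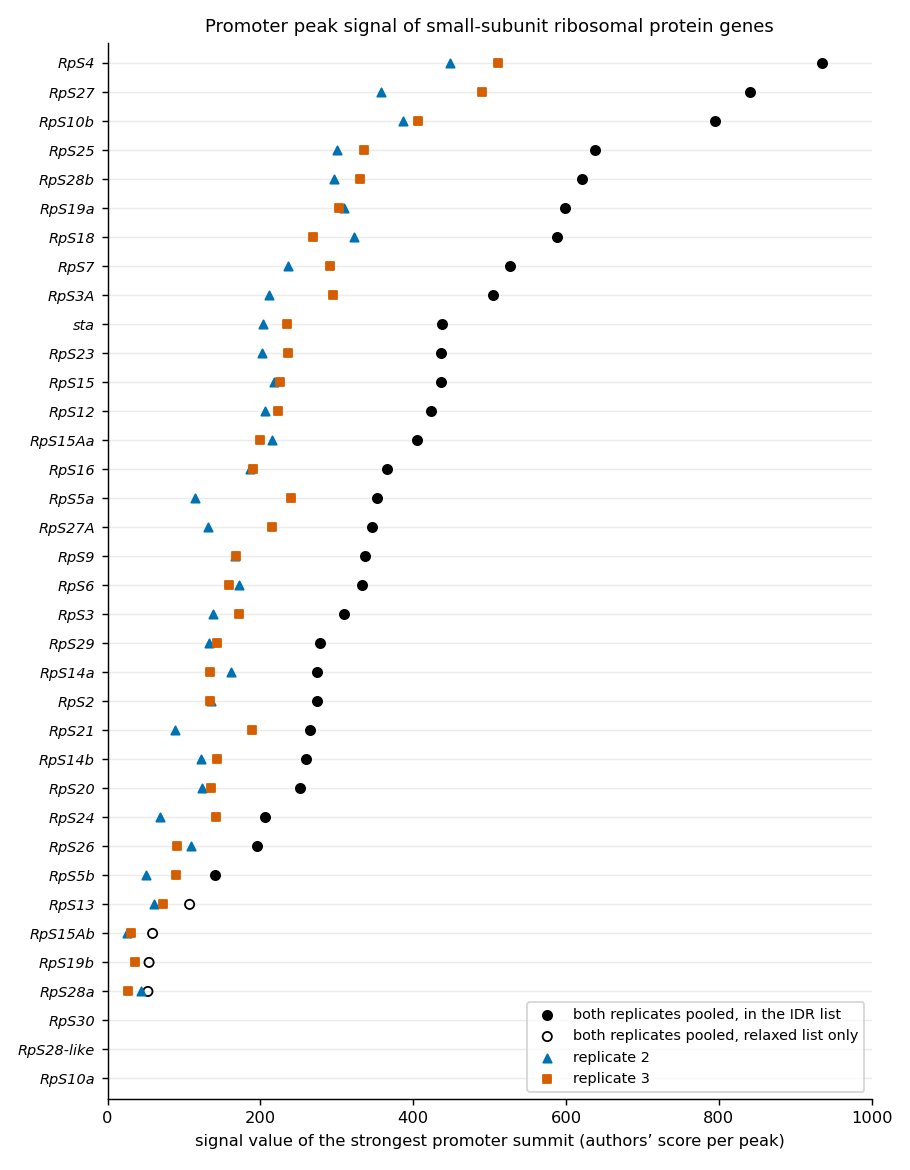
Signal value of the strongest promoter summit (the authors' score per peak) of each small-subunit gene reported by name, ordered from strong to weak; filled circles are the IDR list, open circles the relaxed pooled list only, triangles replicate 2 and squares replicate 3. RpS4 leads with 935 and RpS5b closes the bound genes with 140.3, while RpS10a, RpS28-like and RpS30 have no point because no promoter summit was listed.

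By place in the subunit, 15 of 19 head genes were bound, with a median signal of 366 (140.3 to 795), and 17 of 20 body and platform genes, with a median of 333 (196 to 935). The ranges of head and body overlapped over nearly their whole length. Besides those already described, the head genes with a bound promoter included RpS15 (signal 436), which reaches the transfer RNA sites, RpS12 (423), a beak protein known in flies for its part in Minute cell competition and RpS16 (366). RpS3, which lines the mRNA entry channel, and RpS20 had signals of 309 and 252, and RpS29, a zinc-finger protein, had 278. RpS27A, which is made as a fusion to ubiquitin, had a signal of 346.5 at chr2L:10408183-10408487, but its summit lies 7 bp from the start of both RpS27A and Ip259, so the peak cannot be assigned to RpS27A alone.

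In the body and platform, RpS23 of the decoding centre had a signal of 436.5, and RpS9 and RpS2 had signals of 337.5 and 274. RpS6, the substrate of the S6 kinase, had 333, with 172 in replicate 2 and 159 in replicate 3. The RpS6 summit lies 23 bp from the start of the pseudogene CR33222 and 76 bp from that of snoRNA:Or-aca2, so it cannot be assigned to RpS6 alone. The start of bys, a factor of small-subunit assembly, lies 601 bp from this summit. RpS26, at the mRNA exit channel, had a signal of 196, below the median of the list.

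The replicates gave most of these promoters similar values, although each list was scored on its own and whether the scales are equal is not stated. The median signal of the 32 bound genes was 169 (51.0 to 448) in replicate 2 and 198 (89.9 to 510.4) in replicate 3. The larger value exceeded the smaller by a median factor of 1.16 at the small-subunit genes, against 1.32 over the 5217 summits of the IDR list that could be matched in both replicates within 100 bp. Replicate 3 was the higher at 24 of the 32 genes (75%), and at 61.9% of those 5217 summits. The factor exceeded 1.5 at 5 genes, and replicate 3 was the higher at all 5 of them. How many of the 5217 summits passed 1.5 was not counted, so these 5 genes were not set against the list.

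RpS21, a body protein, had the largest gap, since its summit scored 87.7 in replicate 2 and 189 in replicate 3 (265.5 in the IDR list, chr2L:2855970-2856203), a factor of 2.15. RpS5a followed with 114 in replicate 2 and 241 in replicate 3, a factor of 2.11, and RpS24, a body protein, with 68.3 and 142 (205.5 in the IDR list, chr2R:22641048-22641477), a factor of 2.08. The remaining pair of genes past that mark were RpS5b with 1.76 and RpS27A with 1.64. RpS24 and RpS5b ranked 5894 and 9176 in replicate 2, outside its 5703 strongest summits, and 1692 and 4130 in replicate 3.

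The 7 small-subunit genes with no promoter summit in the IDR list were RpS10a, RpS13, RpS15Ab, RpS19b, RpS28-like, RpS28a and RpS30. RpS13, a single-copy platform protein, had a summit in the relaxed pooled list with a signal of 107 at rank 8209, 41 bp downstream of a start, and values of 60.8 in replicate 2 and 72.5 in replicate 3. RpS30, which is made as a fusion to a ubiquitin-like protein, had no relaxed promoter summit in any list, and the nearest summit of the IDR list was 14587 bp away. The others are copies of a bound gene or, for RpS28-like, a relative of one.

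RpS15Ab had a relaxed pooled signal of 59.0 (24.9 in replicate 2, 30.4 in replicate 3), and the nearest IDR summit, 1745 bp away, lay 47 bp from the start of the proteasome gene Prosbeta5. RpS19b had a relaxed pooled signal of 54.3 and a listed promoter summit in replicate 3 only, with 35.7. A strong IDR summit of 389 stood 880 bp upstream of the RpS19b start and 498 bp from the start of CG5854. RpS28a had a relaxed pooled signal of 52.8 (43.7 in replicate 2, 26.7 in replicate 3), and an IDR summit of 472 stood 505 bp downstream of its start and 78 bp from that of Mgat2. RpS10a and RpS28-like had no relaxed promoter summit in any list, and their nearest IDR summits were 16607 and 5446 bp away, at CG5611 and scat. The distance of 505 bp at RpS28a is the closest outside the window of 500 bp. Among the strongest summits of the bound genes, the farthest from a start, at RpS24, lay 156 bp away.

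Duplicated genes differed within pairs. Of 6 pairs with the same name up to a final a or b, 4 had 1 bound gene (RpS10b, RpS15Aa, RpS19a and RpS28b, each with no bound copy) and 2 had both bound (RpS5a with RpS5b, RpS14a with RpS14b). Copies such as RpS5b, RpS10a and RpS19b are known in flies for expression mainly in the germ line. The coding sequences of the copies were 98.2% identical for RpS15Aa and RpS15Ab (390 aligned bases), where the signal was 405 at chrX:13337445-13337795 for RpS15Aa (216 in replicate 2, 199 in replicate 3) and 59.0, in the relaxed list only, for RpS15Ab. Identity was 78.1% for RpS28a and RpS28b, 75.4% for RpS10a and RpS10b, and 67.1% for RpS19a and RpS19b. RpS28-like was 66.8% identical to RpS28b.

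In the pairs bound at both genes, RpS14a and RpS14b are neighbours on X with 97.8% identical coding sequences, and their promoters had close values. RpS14a, a platform protein, had a signal of 274 at chrX:7933676-7933883, with 161 in replicate 2 and 134 in replicate 3, and RpS14b had 260 at chrX:7934769-7934949, with 122 in replicate 2 and 143 in replicate 3. The order of the pair differed between replicates. RpS5a, at the mRNA exit channel, had 353 at chrX:17148162-17148459, and its copy RpS5b had 140.3 at chr3R:14901405-14901834, with 51.0 in replicate 2 and 89.9 in replicate 3. RpS5a was the higher in both replicates, and the coding sequences of RpS5a and RpS5b were 81.4% identical.

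Reads from near-identical sequence can be placed at the wrong copy. The 50 bases on either side of each summit, or of the most upstream start of an unbound gene, were therefore searched against the genome. Another match was found for 6 of the 39 genes, 4 of them over 50 or more bases, and the closest was 88.6% identical. RpS10b and RpS15Aa matched each other, over 55 bases with 85.5% identity and 57 bases with 86.0% identity from either side, around the 22-base run printed above. None of the 7 unbound genes had another match at its most upstream start. RpS13 and RpS30 have 3 starts each, and their other starts were not searched.

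**Figure D3:**
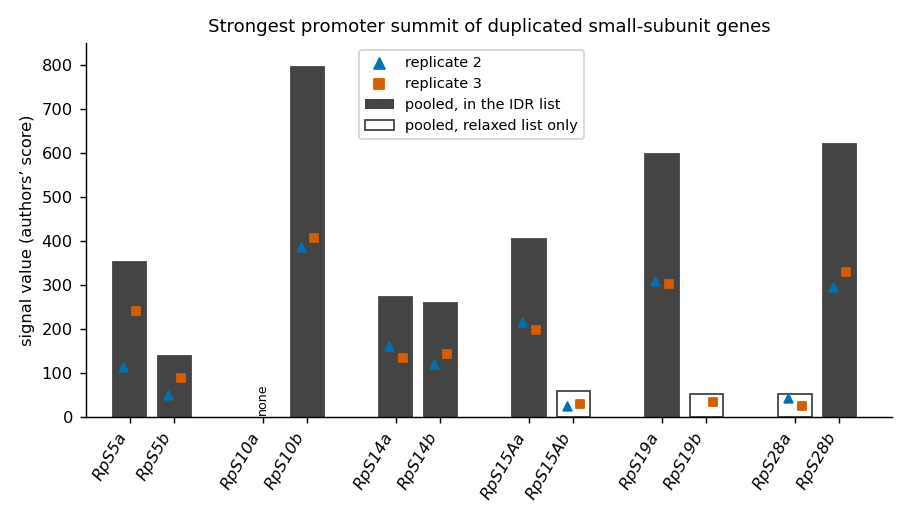
Signal value of the strongest promoter summit at 6 pairs of duplicated small-subunit genes; filled bars are the IDR list, open bars the relaxed pooled list only, triangles replicate 2 and squares replicate 3. RpS10b stands at 795 beside no listed summit at RpS10a, whereas RpS14a at 274 and RpS14b at 260 are nearly level.

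The summits sat at the start of transcription. The median position of the strongest promoter summit was 31 bp downstream of the nearest start site at the 32 small-subunit genes (57 bp upstream to 156 bp downstream), against 42 bp upstream at all bound protein-coding genes. Within the first 100 bp downstream of a start lay 20 of the 32 (62.5%), against 21.7% of all bound genes (604 of 2785). The position varied with the replicate used, with medians of 36 bp in replicate 2 and 11.5 bp in replicate 3, and it was 57 bp when the most upstream start of each gene was used. By annotation, 17 of the 32 summits lay in a 5′ UTR, 9 in an intron and 6 outside the gene. A single promoter summit was found at 29 of the genes, and RpS18, RpS19a and RpS25 had 2 each.

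**Figure D4:**
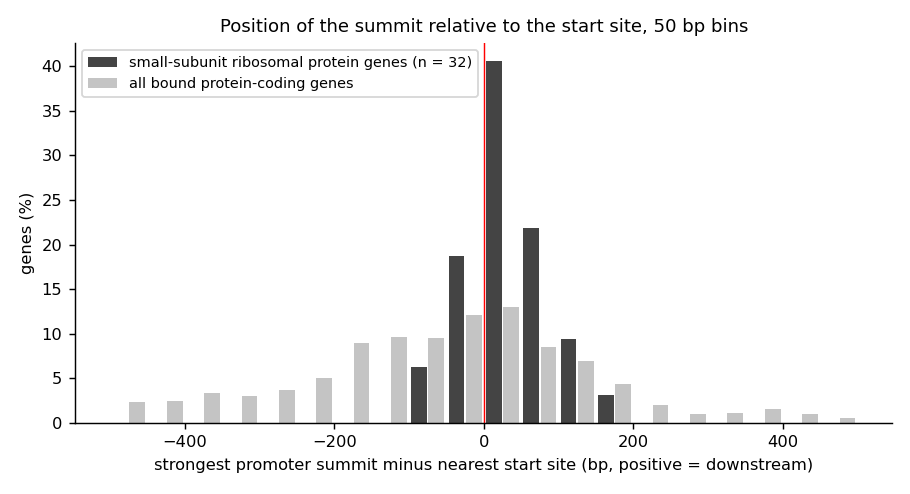
Distance of the strongest promoter summit from the nearest start site in bp (positive is downstream), in bins of 50 bp, as a percentage of the 32 bound small-subunit genes (dark) and of all 2785 bound protein-coding genes (light). The dark bars peak in the bin from 0 to 50 bp, with 40.6% of the small-subunit genes beside 13.0% of all bound genes.

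Another coding gene started within 500 bp of the summit at 11 of the 32 promoters, so that those peaks cannot be assigned to the ribosomal protein gene alone. The same holds for 5 promoters with a noncoding gene start within 500 bp, some of them among the 11. Small nucleolar RNAs, which guide modification of ribosomal RNA, are encoded in introns of many ribosomal protein genes. Here 13 of the 39 small-subunit genes held 43 snoRNA genes in all, with 14 of them in RpS5a. All 13 of these hosts were bound, against 82.1% of all small-subunit genes and 20.0% of all protein-coding genes. Whether hosts differ from the other small-subunit genes was not tested.

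The TCT initiator stood at a start site of 24 of the 39 small-subunit genes (61.5%) and of 31 of 54 large-subunit genes (57.4%), against 2.13% of all protein-coding genes and 4.85% of the bound ones. It was present at 22 of the 32 bound small-subunit genes and at 2 of the 7 unbound ones, RpS13 and RpS30, whose sequences are printed above. Bound small-subunit genes with the motif had a median signal of 342 and those without it 429.8, so the signal was not higher with the initiator. The summit lay at a median of 18.5 bp downstream of the C of the motif over all 22 (-319 to 151 bp, negative upstream), and within the first 100 bp downstream at 13 of them. Among the unbound copies, none of RpS10a, RpS15Ab, RpS19b, RpS28a and RpS28-like had it, even with the C allowed within 10 bases of a start, a setting under which 29 of the 39 small-subunit genes and 4.09% of all genes did. With the C within 2 bases the count was 8 of 39 (20.5%), against 0.861% of all genes, and at the most upstream start of each gene only it was 12 of 39 (30.8%), against 1.38%.

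The DRE, sought as TATCGATA, which reads the same on both strands, was found from 250 bases before to 50 after a start at 12 of the 39 small-subunit genes (30.8%) and 27.8% of large-subunit genes, against 8.94% of all genes and 10.3% of the bound ones. It was present at 9 of the 32 bound small-subunit genes and at 3 of the 7 unbound ones, RpS13, RpS15Ab and RpS30. The median signal of bound small-subunit genes was 405 with a DRE and 346.5 without it. Within 50 bases of the summit, 1 of the 32 genes had a DRE (3.12%), against 1.40% of all bound genes. The GAGA element, GAGAGAG on either strand, was at none of the 39 promoters, against 6.70% of all genes and 14.3% of bound genes. It was also at none of the 54 large-subunit promoters, so its absence was not particular to the small subunit. Motif 1, another core promoter element of flies, sought as GGTCACAC on either strand, was at 5 of the 39 (12.8%). The share was 18.5% of large-subunit genes and 7.46% of all genes. The letters TATAAA on either strand were at 19 of the 39 (48.7%), against 40.7% of large-subunit genes and 45.2% of all genes.

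**Figure D5:**
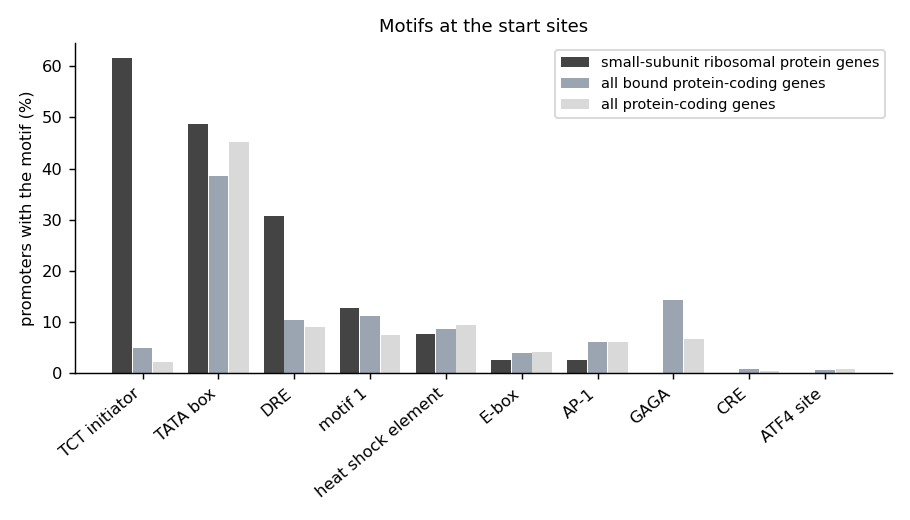
Percentage of promoters that hold each motif, for the 39 small-subunit genes (dark), all bound protein-coding genes (middle) and all protein-coding genes (light). The TCT initiator stands at 61.5% in the small-subunit genes beside 2.13% in all genes, and GAGA at 0 beside 6.70%. The large-subunit genes, which are not drawn, had the TCT initiator at 57.4% and GAGA at 0 as well.

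The genes of the large subunit gave similar shares to those of the small subunit. Of 54 large-subunit genes 46 were bound (85.2%), with a median signal of 425, a median position 8 bp downstream of the start and the strongest peaks at RpL24 (853), RpL30 (780) and RpL31 (771.5). RpL10Aa, RpL15, RpL21, RpL22-like, RpL24-like, RpL37-2, RpL38 and RpL5 had no promoter summit in the IDR list, and 1 of these 8 had one in the relaxed pooled list. The difference between the subunits was not tested.

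Genes that act on the small subunit were counted in the same way, with no test between lists. Of 14 assembly factors 0 were bound in the IDR list and 0 in either replicate alone, against 20.0% of all genes, while 8 (57.1%) had a summit in the relaxed pooled list, against 48.1% of all genes, so that the order turned with the list. These 14 include the rRNA methyltransferase gene Fib and its partners Nop56, nop5 and hoip, the U3 particle gene U3-55K, the kinase genes RIOK1 and RIOK2, and bys, Nopp140, wcd, Mat89Ba, Tsr1 and CG7728. Of 21 genes for initiation factors and other proteins that bind or modify the small subunit, 10 were bound in the IDR list, 14 in replicate 2 alone and 7 in replicate 3 alone (50% ± 23.6, SD, n = 2). The strongest were eIF1 (503), at a summit that is also that of RpL28, Rack1 (429), a scaffold protein on the subunit, and eIF3a (352). Their median signal was 176, below that of all bound genes, and the S6 kinase gene S6k had 174. In the IDR list no promoter summit was found at eIF1A, eIF2alpha, eIF2gamma, eIF3b, eIF3c, eIF3d1, eIF3e, eIF3i, eIF3k, eIF3m or eIF5.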

How the data were processed

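Peak lists in narrowPeak format on dm6 were analysed, 1 per replicate, 1 pooled over both and 1 past the IDR threshold derived from them. Per the notes deposited with the files, the relaxed lists were called against a control alignment. Their aligner, peak caller and library depth were not given in the sources used here. Each peak carries a score, its signal value, that the authors deposited on an unstated scale. It was compared within a list, except where the values of the 2 replicates were set side by side. The authors' −log10 q-value was 4.18 in every IDR peak and gave no order. Summit positions came from the deposited offset column. Lists on dm3 were not used. All peaks lay within the reference chromosome lengths.

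Start sites were those of Ensembl release 115, and sequences those of the RefSeq genome. A replicate summit within 100 bp was taken as the match. Each replicate alone was cut to its 5703 strongest summits. Scripts used Python 3.11.15, pandas 2.3.3, NumPy 2.4.6, Biopython 1.88, Matplotlib 3.10.9 and blastn 2.17.0. As a check of the code, summits were planted within 500 bp of start sites in simulated data. The same rule recovered 200 of 200 among 13945 genes, which tells nothing about how well peaks were detected. Alternatives were other windows, lists, start sites, overlaps and motif settings.

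The small-subunit genes and the gene lists were chosen with earlier results of these data known. Small-subunit genes are named, except some that are counted but not reported by name here. Full values are given for the 10 strongest, the unbound, both genes of each pair, sta, and the 3 with the largest replicate ratio. Genes starting within 1000 bp are named for the 10 strongest, and in other lists the 3 strongest and those not bound, except 1 assembly gene.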

Additional observations from a re-analysis of the deposited data

How the results depend on the processing

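The number of bound small-subunit genes stayed between 29 and 36 under 8 alternatives. The window of 1000 bp added RpS19b and RpS28a, the relaxed pooled list added these with RpS13 and RpS15Ab, the stronger part of the IDR list gave 29 and lacked RpS26 and RpS5b, and any overlap of the peak with the window added RpS28a. Leaving out each replicate in turn gave 30 to 32. Over all results, 58 of 86 alternatives gave a value near the one reported. A count or share was taken as near when it was equal or within a factor of 1.5, which is a loose rule. A median was taken as near when it differed by less than the SD between the replicates. Bound assembly factors numbered 3 with the window of 1000 bp, 8 in the relaxed list, where their share passed that of all genes, and 2 with any overlap. Bound initiation factors numbered 4 in the stronger part of the IDR list and 17 in the relaxed list. The share of all protein-coding genes was 11.1% in the stronger part and 48.1% in the relaxed list. Pairs with 1 bound gene numbered 2 with the window of 1000 bp and 1 in the relaxed list. The median percentile of the small-subunit genes in the list of summits, 84.6, was 71.9 in the stronger part, 96.8 in the relaxed list and 85.1 to 87.1 with 1 replicate left out, which the length of the lists partly sets. The median position of 31 bp was 57 bp with 1 start site per gene and 11.5 to 36 bp with 1 replicate left out. The median replicate signal, 176, was 207 when summits were matched within 50 bp, where 27 of 32 genes had a match. The DRE count of 12 was 1 within 50 bases of the summit. For the TCT initiator, where the settings were chosen after seeing the data, the count of 24 was 8 with the C within 2 bases and 12 at the most upstream start only. The cause of these shifts was not tested.

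No paired analysis was possible because the 2 replicates form 1 group. Library depth is not known here, so no limit on the weak promoters, such as RpS5b, can be given from it.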

Other observations

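Outside the ribosomal protein genes, 242 protein-coding genes had a TCT initiator at a start site, and 86 of them were bound (35.5%), against 19.3% of the 13610 without it. With the DRE the share bound was 21.7% of 1219 other genes. These shares are lower than the 82.1% of the small-subunit genes, and no test was run on them.

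Promoters of small-subunit genes had a median GC content of 37.5% (29.9% to 50.8%), against 38.2% over all protein-coding genes and 40.2% over the bound ones. The E-box, CACGTG, was at 1 of the 39 small-subunit promoters (2.56%) and at 9 of 54 large-subunit promoters, against 4.22% of all genes. In the wider stretch of 500 bases on either side of the start it was at 13 of the 39 (33.3%), against 12.9% of all genes, so that the order turned with the stretch searched. The AP-1 letters TGANTCA were at 1 of the 39, against 6.17% of all genes, and in the wider stretch at 8 (20.5%), against 18.6%. The heat shock element GAANNTTC was at 3 of the 39 (7.69%), against 9.35%, and in the wider stretch at 11 (28.2%), against 26.3%. The CRE (TGACGTCA) and the ATF4 site (TGATGCAA) were at 0 of the 39 in either stretch, against 0.423% and 0.782% of all genes in the narrower one and 1.48% and 3.06% in the wider one. All motifs except the TCT initiator were sought on both strands.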
